A study of Homo sapiens with 8 samples.

Results

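The genes described here are 30 genes of sterol synthesis, uptake and efflux, taken by symbol from the 19479 genes of 2 joined expression tables. All 30 were found. By role they are 7 enzymes of the mevalonate steps, 3 of the squalene steps, 8 that act after lanosterol, 4 genes that control the SREBP transcription factors, 3 sterol carriers and 5 genes of LXR signalling and efflux. RNA was sequenced from AC16, a proliferating human line obtained by cell fusion from ventricular tissue and transformed fibroblasts. There were 8 libraries in 4 groups of 2. All cultures were grown in DMEM with 10% fetal bovine serum, penicillin and streptomycin, and the labels name no genetic change. The 5 mM and 25 mM groups had been kept at 5 or 25 mM D-glucose for at least 3 passages and then replated at the same concentration. In the 5 to 50 mM and 25 to 50 mM groups, D-glucose was raised to 50 mM, 24 h after replating, by adding 45 or 25 mM, and held there for 24 h. The labels name no sterol, lipoprotein, statin or LXR agonist, and no group received another sugar as an osmotic control. The series describes its replicates as technical, so every p-value here measures the spread between libraries and not between independent cultures. Glucose history and separate upkeep of the 2 lines of culture cannot be told apart.

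Cells make cholesterol from acetyl-CoA: the mevalonate steps build isoprenoid units, the squalene steps join and fold them into lanosterol, and the later enzymes trim lanosterol into cholesterol. When endoplasmic reticulum sterol is low, the carrier SCAP takes SREBP2, the product of SREBF2, to the Golgi, where it is cut and becomes able to switch on synthesis genes; INSIG proteins hold SCAP back when sterol is plentiful. Cholesterol taken up with lipoproteins leaves the lysosome through NPC2 and NPC1. Oxysterols activate the nuclear receptors LXRα and LXRβ, which switch on efflux pumps such as ABCA1 and ABCG1 and the ubiquitin ligase MYLIP, which removes lipoprotein receptors. Cardiac muscle cells both make cholesterol and take it up, and use it in the surface membrane and its tubules.

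Promoter windows from 250 bases before to 50 bases after 1 start per gene (RefSeq, GRCh38.p14) were found for 26 of the 30 genes. They were also found for 15426 of all genes in the tables. For PMVK, SCAP, DHCR7, CYP51A1 and MVK this start lay inside the gene and not at its outer end. All windows were searched on both strands for CACNCCAC, the core of the sterol response element that SREBP binds. They were also searched for CCAAT, the letters bound by NF-Y, its usual partner. The core letters were in 4 of 26 windows, 15.4%, and in 6.07% of all windows. For the synthesis enzymes they were in 1 of 15, that of SC5D. The longer form TCACNCCAC, which contains the core, was in the SREBF2 window only (1 of 26, 3.85%, against 1.19% of all windows). CCAAT was in 17 of 26 windows, 65.4%, and in 36.6% of all; among the synthesis enzymes it was in 12 of 15. A strict form of the LXR repeat, GGTCA and AGGTCA on the same strand spaced by 4 bases, was in none of the 26 and in 0.0519% of all windows. Looser spellings of the repeat were not searched, so a window without this form may still hold one. A match is a description of letters and not of binding. The 4 windows with the core letters are printed because their genes cover 3 of the roles and differ in the values below; capitals mark CACNCCAC or CCAAT on either strand, and each window runs 5′ to 3′ along its gene. The SREBF2 window (chr22:41832855-41833154, plus strand) has the core 132 bases before the start, the INSIG1 window (chr7:155297628-155297927, plus strand) 208 before, the ABCA1 window (chr9:104928106-104928405, minus strand) 228 before and the SC5D window (chr11:121292521-121292820, plus strand) 13 after.
SREBF2: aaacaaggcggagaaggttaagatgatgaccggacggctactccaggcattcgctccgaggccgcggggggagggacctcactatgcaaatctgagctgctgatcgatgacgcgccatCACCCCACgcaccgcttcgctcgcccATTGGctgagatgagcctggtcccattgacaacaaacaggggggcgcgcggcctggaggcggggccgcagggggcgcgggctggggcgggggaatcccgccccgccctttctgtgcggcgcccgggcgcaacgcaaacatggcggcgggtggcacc
INSIG1: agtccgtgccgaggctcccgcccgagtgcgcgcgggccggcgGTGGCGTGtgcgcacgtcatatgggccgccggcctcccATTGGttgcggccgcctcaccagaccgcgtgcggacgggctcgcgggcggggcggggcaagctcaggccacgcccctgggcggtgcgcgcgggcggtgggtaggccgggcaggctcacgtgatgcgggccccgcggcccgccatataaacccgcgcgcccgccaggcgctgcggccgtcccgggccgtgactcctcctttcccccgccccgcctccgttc
ABCA1: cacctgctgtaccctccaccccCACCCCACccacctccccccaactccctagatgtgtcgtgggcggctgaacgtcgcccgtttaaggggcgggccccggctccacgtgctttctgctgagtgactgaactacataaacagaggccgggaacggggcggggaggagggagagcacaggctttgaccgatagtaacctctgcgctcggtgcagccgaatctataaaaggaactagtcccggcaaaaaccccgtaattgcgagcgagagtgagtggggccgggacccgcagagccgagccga
SC5D: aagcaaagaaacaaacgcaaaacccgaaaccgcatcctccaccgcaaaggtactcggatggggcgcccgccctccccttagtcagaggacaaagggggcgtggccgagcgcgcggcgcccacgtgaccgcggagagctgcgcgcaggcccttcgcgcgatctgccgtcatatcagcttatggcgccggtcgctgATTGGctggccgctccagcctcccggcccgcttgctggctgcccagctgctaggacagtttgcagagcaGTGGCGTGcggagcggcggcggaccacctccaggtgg

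The values are RPKM, reads per kilobase of gene scaled to a read total for each library. Of each recovered total, 99.94 to 99.95% lay in the listed genes, so it holds almost only reads counted in genes. Library totals recovered from the steps between low values ran from 21538898 to 27372851 reads, and every value above 0 came out as a whole read count within 0.01. At these totals 3 reads amount to 0.11 to 0.139 RPKM for a gene of 1 kb. The recovered lengths equalled or were close to coding lengths (median ratio 1.0 to the coding length, 0.441 to the full exon length over 29 of the genes), so reads in untranslated ends mostly did not count. Of 20 cardiomyocyte markers, 5 reached 1 RPKM in any library and MYL2, CASQ2, NKX2-5 and TBX5 were at 0 in all 8; all 15 fibroblast markers were present and summed to 7605 to 8914 RPKM. The contractile identity named in the labels was therefore not borne out by these markers. Summed cardiomyocyte markers were 9.09 to 9.53 RPKM at 5 mM, 11.3 to 12.2 at 5 to 50 mM, 4.54 to 6.27 at 25 mM and 3.71 to 4.28 at 25 to 50 mM. Replication histones, 15 in the tables, summed to 301 to 372 RPKM at 5 mM, 460 to 471 at 5 to 50 mM, 52.1 to 56.1 at 25 mM and 69.2 to 69.9 at 25 to 50 mM. Both sums moved with the starting glucose, as many sterol genes did, and their part in the results was not tested. The sums do not describe every gene: HIST1H2BK alone averaged 133 RPKM over the 4 groups. Some genes went the other way, among them TNNC1, 4.54 times as high at 25 mM as at 5 mM, and HIST1H4C, 3.17 times. These 2 averaged 0.572 and 0.463 RPKM. In bulk RNA, fewer cells of a type and less RNA per cell cannot be told apart.

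Per kilobase, some synthesis enzymes were among the abundant transcripts of this set, and others, such as MVK, HSD17B7 and TM7SF2, were in its lower part. Averaged over the 4 groups, the lysosomal carrier NPC2 was at 275.9 RPKM, a mean over groups that differ widely: it led the set in both groups started at 5 mM and lay under FDPS, ACAT2, FDFT1, HMGCS1 and EBP in both started at 25 mM. The order of the others began with the mevalonate enzymes FDPS at 242 and ACAT2 at 214, the squalene synthase FDFT1 at 196 and HMGCS1, the enzyme that makes HMG-CoA, at 139. At the low end stood TM7SF2, a sterol reductase, at 4.15 RPKM, NR1H3, which encodes LXRα, at 4.11, MYLIP at 3.44 and ABCA1 at 0.528. NR1H3 and TM7SF2 adjoined in this order and their library values overlapped. ABCG1 had 0 reads in all 8 libraries, which allows up to 3 reads in each. ABCA1 and ABCG1 did not reach 1 RPKM in any library and so were outside the main test; the other 28 genes entered it. The plot of levels by library shows the order within each role. FDPS and HSD17B7 have closely similar pseudogene copies and ACAT2 overlaps a neighbour on the other strand, so their counts are less certain.

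**Figure D1:**
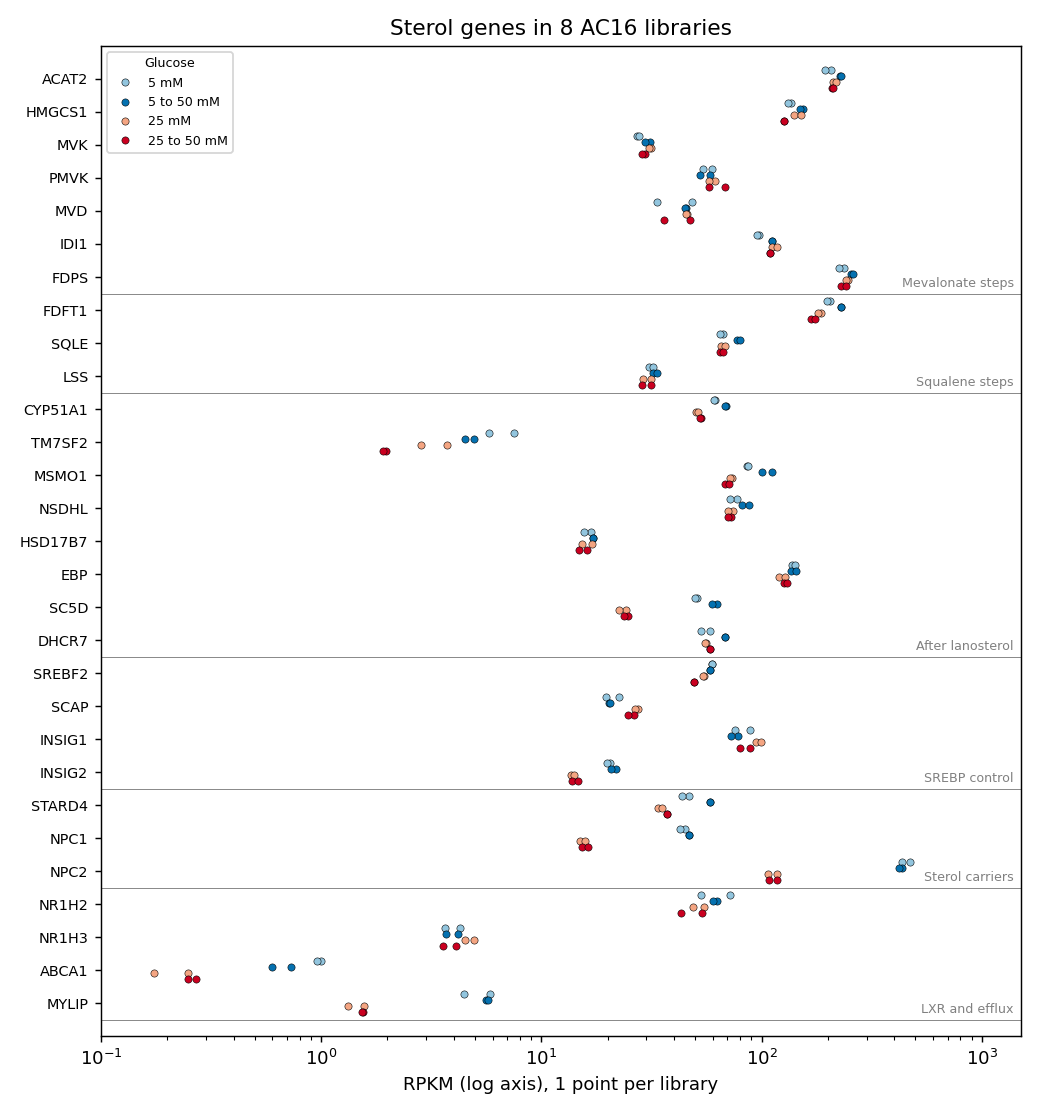
RPKM of 29 of the 30 genes in each of the 8 libraries (log axis, 1 point per library, coloured by glucose group, grouped by role); ABCG1, at 0 throughout, is not drawn. For NPC1, NPC2, SC5D, MYLIP and ABCA1 the 4 libraries started at 5 mM lie to the right of the 4 started at 25 mM, while most mevalonate enzymes lie close together.

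After the rise from 5 to 50 mM, 16 of the 18 synthesis enzymes had fitted values above those at 5 mM, as had 40.5% of all genes, and none was past the threshold. After the rise from 25 to 50 mM, 5 of 18 had, and 36.3% of all genes. The 18 enzymes summed to 1576 ± 8.20 RPKM at 5 mM and 1773 ± 21.4 after the rise (SD, n = 2 libraries here and throughout), a difference of 12.5%. From 25 mM the sum was 1554 ± 10.7 before and 1505 ± 1.03 after, or -3.16%; these sums carry no test. Every gene was then tested with limma on log2(RPKM + 1); differences given below with an SE or an adjusted p are log2 differences from these fits, negative where the group after the rise, or the one kept at 25 mM, was lower. In the rise from 5 mM, 0 of 28 genes passed an adjusted p of 0.05, where 0.329% of all 11849 genes tested did, and voom on the recovered reads also called 0. An unadjusted p under 0.05 was reached upward by 12 of the 28 and downward by 1 (all genes: 5.16% and 5.36%). In 16 of 28 both libraries after the rise were above both before it, and in 2 both were below; over all genes these shares were 16.6% and 26%. The median log2 change was 0.13 for the 28 and -0.03 for all genes tested. Without replicate 1 of the 5 mM group the same test called 8 of the 28 (6.82% of all genes) and without replicate 3 it called 3 (4.77% of all genes), so these counts rest on single libraries.

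In the rise from 25 mM, limma called 0 of 28 genes, against 0.00876% of all 11422 tested, and voom called 0. Before adjustment, 0 reached p under 0.05 upward and 4 downward (all genes: 2.8% and 6.45%). Groups did not overlap upward in 3 genes and downward in 11 (all genes: 14.4% and 29.1%), and the median log2 change was -0.04, beside -0.03 for all genes. Without replicate 2 of the 25 to 50 mM group, 2 genes were called, the SREBP control gene INSIG1 and the mevalonate enzyme MVD, where 6.83% of all genes were. The 2 rises share no library, so their values can be set side by side. HMGCS1, MVK, IDI1, FDPS, FDFT1 and MSMO1 were higher without overlap from 5 mM and lower without overlap from 25 mM, a pattern held by 2.2% of 11352 genes tested in both. CYP51A1, DHCR7 and STARD4 were higher without overlap in both (5.71% of all genes), and TM7SF2 and SREBF2 lower in both (10.5% of all genes). The difference between the 2 rises, fitted on all 8 libraries, passed for 0 of 28 genes (0.0251% of 11941 genes). Before adjustment it was lower at p under 0.05 for 11 of the 28 and higher for 0, against 3.74% and 2.29% of all genes, and voom called 0. Its median was -0.16 in the 28 and -0.01 over all genes. The widest gap was that of HMGCS1, -0.38 (SE 0.0715, adjusted p = 0.388). Depending on the setting the median ran from -0.116 to -0.206.

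**Figure D2:**
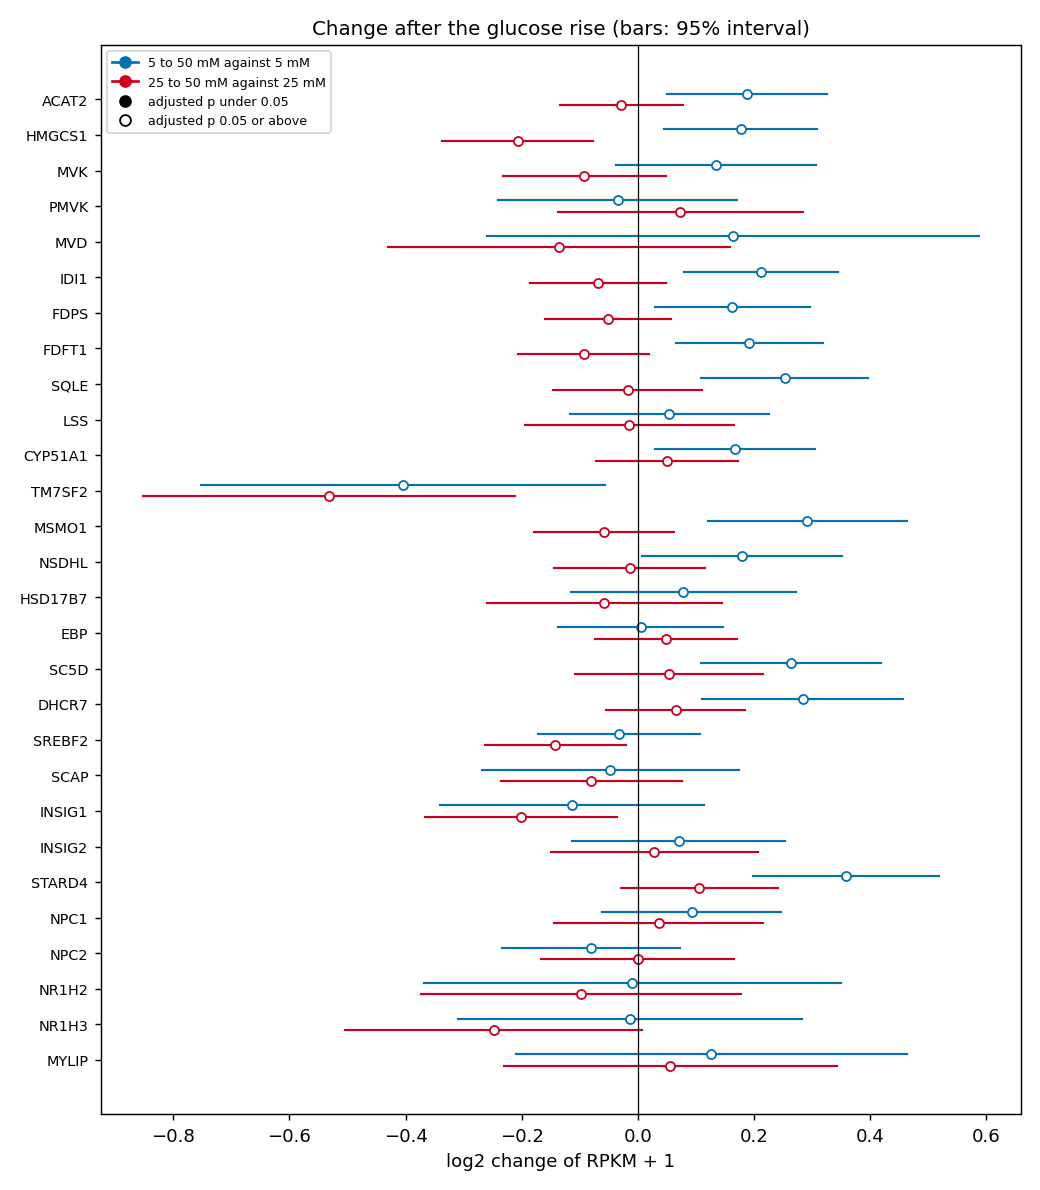
Fitted log2 change of RPKM + 1 for the 28 genes tested after the rise from 5 mM (blue) and from 25 mM (red), with 95% intervals from limma; open points did not pass an adjusted p of 0.05, which here is every point. Of the 18 synthesis enzymes, 16 blue points lie right of 0, up to MSMO1 at 0.29, and 5 red points do; TM7SF2 lies left of 0 in both.

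At 25 mM against 5 mM, 3 of 28 genes were higher (MVK, IDI1 and SCAP) and 11 lower (FDFT1, CYP51A1, TM7SF2, MSMO1, EBP, SC5D, INSIG2, STARD4, NPC1, NPC2 and MYLIP); of all 11941 genes tested 39.1% were called, 17% higher and 22.1% lower. Calls were thus common among all genes, and the count of 14 is by itself no result about these 28. The 7 mevalonate enzymes were all above 0 in the fit, as were 49.3% of all genes, and 2 passed; of the 8 enzymes after lanosterol 1 was above 0 and 5 were lower; all 3 carriers were lower. Among the cultures that ended at 50 mM, 1 gene was higher at the 25 mM start (SCAP) and 15 were lower, beside 41.4% of all genes (18.1% higher, 23.3% lower). Of the 11 and 15 lower genes 10 were shared; EBP was in the first set only, and HMGCS1, SQLE, NSDHL, DHCR7 and SREBF2 in the second only. Whether the 2 comparisons differ for any gene is the difference tested above, which passed for none. The groups compared share no library, but both comparisons were fitted on all 8 libraries with 1 shared estimate of the spread. Their calls are therefore not independent. Median log2 differences were -0.05 at the start and -0.24 after the rises, beside -0.004 and -0.02 for all genes. Under quantile normalization the split at the start became 7 higher and 9 lower (all genes: 56.1% of calls higher, 43.5% in the main fit), and after the rises it stayed at 1 and 15 (all genes 60.1%, 43.8% in the main fit). Median centring gave 1 and 13 after the rises, with 54.1% of all calls higher.

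**Figure D3:**
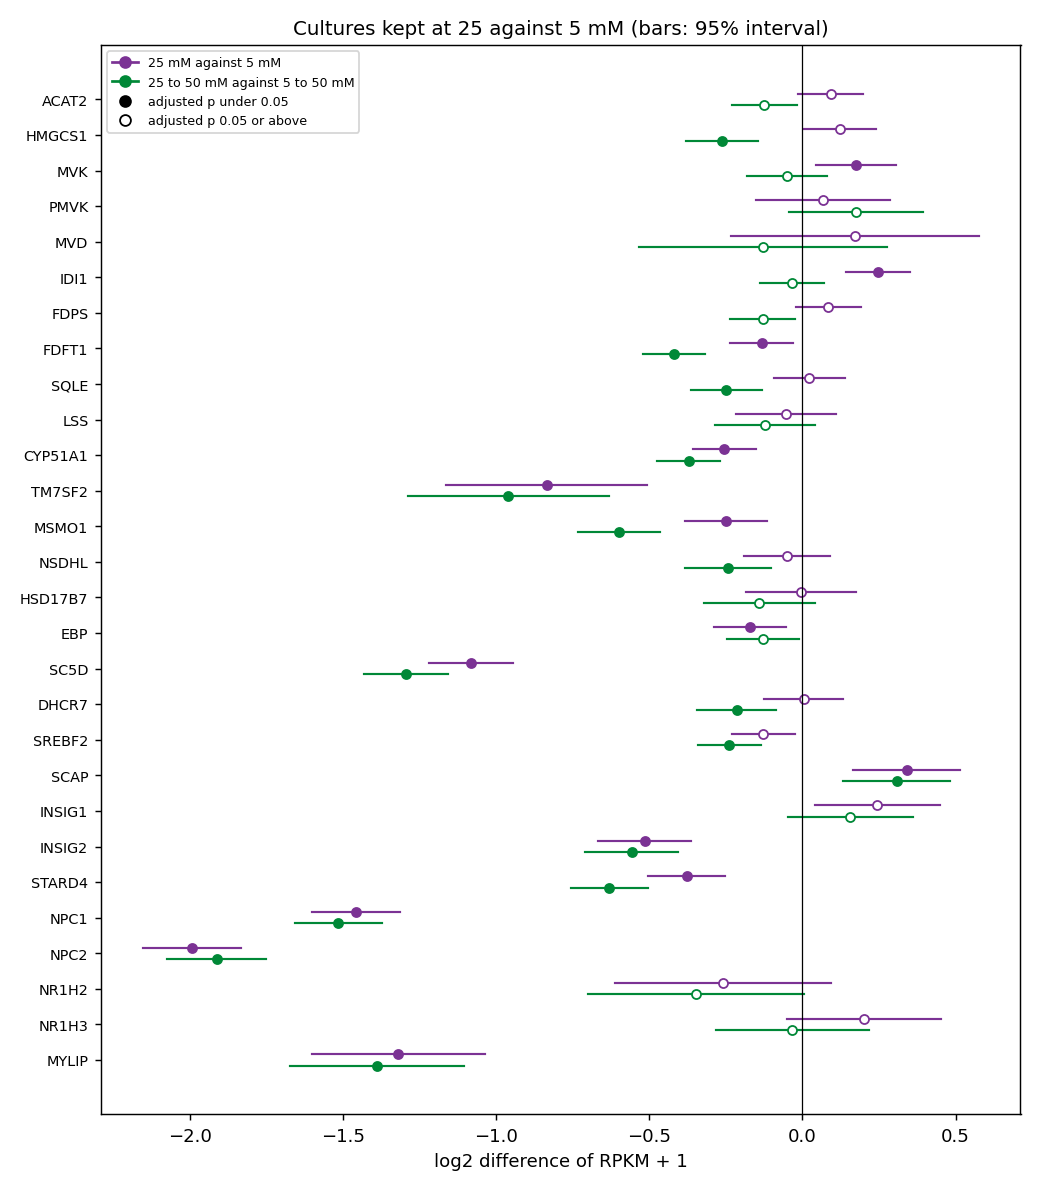
Fitted log2 difference of RPKM + 1 between cultures kept at 25 mM and at 5 mM, before the rise (purple) and after it (green), with 95% intervals from limma; filled points passed an adjusted p of 0.05 over all genes. The mevalonate enzymes lie near 0, and NPC1, NPC2, SC5D and MYLIP lie left of -1 in both comparisons.

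Among the mevalonate enzymes, HMGCS1 (Entrez Gene 3157, chr5:43287470-43313412, hg38) was at 136 and 132 RPKM at 5 mM, 154 and 149 RPKM at 5 to 50 mM, 140.0 and 152 RPKM at 25 mM and 126 and 126 RPKM at 25 to 50 mM. Its libraries were higher after the rise from 5 mM and lower after the rise from 25 mM, without overlap, and the changes were 0.18 (SE 0.0525, adjusted p = 0.341) and -0.21 (SE 0.0539, adjusted p = 0.493). At 25 mM it differed from 5 mM by 0.12 (adjusted p = 0.0934), and after the rises by -0.26 (adjusted p = 0.00477), a sign change between them. MVK, which phosphorylates mevalonate, was at 27.1 and 27.8 RPKM at 5 mM, 31.0 and 29.4 at 5 to 50 mM, 31.5 and 30.8 at 25 mM and 29.5 and 28.7 at 25 to 50 mM. It was higher at 25 mM than at 5 mM by 0.18 (SE 0.0561, adjusted p = 0.0403), but lost that call when any 1 of the 8 libraries was left out. IDI1, which isomerises the isoprenoid unit, was at 97.7 and 95.2 RPKM at 5 mM, 112 and 112 at 5 to 50 mM, 112 and 118 at 25 mM and 109 and 109 at 25 to 50 mM. Its 5 mM libraries were the lowest of the 8, and the difference at the start was 0.25 (SE 0.0447, adjusted p = 0.00376); after the rises it was -0.03 (adjusted p = 0.588). The remaining ACAT2, PMVK, MVD and FDPS did not pass in any comparison of the main fits. The fit of only the 4 libraries compared called ACAT2 and FDPS after the rises. Quantile normalization called FDPS at the start, and MVD was called in fits with 1 library left out. ACAT2, which joins acetyl-CoA units, and FDPS, which makes farnesyl diphosphate, had values of 195 to 230.4 and 225 to 261 RPKM over all libraries. PMVK and MVD, the next steps after MVK, had values of 52.5 to 68.2 and 33.4 to 48.3 RPKM. MVD varied most within a group, at 33.4 and 48.3 RPKM in the 5 mM libraries.

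Of the squalene enzymes, FDFT1, which joins farnesyl units into squalene, was at 204 and 198 RPKM at 5 mM, 230.3 and 229 RPKM at 5 to 50 mM, 186 and 180.5 RPKM at 25 mM and 168 and 175 RPKM at 25 to 50 mM. Every library started at 5 mM was above every library started at 25 mM. The difference was -0.13 (SE 0.0435, adjusted p = 0.0438) at the start and -0.42 (SE 0.0435, adjusted p = 0.000241) after the rises; the first was lost with 7 of the 8 single libraries left out, all but replicate 3 at 5 mM. SQLE, a rate-limiting oxygenase of the pathway, was at 67.0 and 64.7 RPKM at 5 mM, 77.6 and 79.7 at 5 to 50 mM, 65.3 and 68.5 at 25 mM and 65.0 and 67.1 at 25 to 50 mM. It stood apart in the 5 to 50 mM libraries alone, with a change of 0.25 (SE 0.0572, adjusted p = 0.245) in that rise and -0.02 (adjusted p = 0.924) in the other. The start of 25 against 5 mM differed by 0.02 (adjusted p = 0.760), an interval of -0.09 to 0.14, and after the rises by -0.25 (adjusted p = 0.00562). LSS, which folds the squalene oxide into lanosterol, had values of 28.7 to 33.5 RPKM and passed in no comparison.

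Enzymes after lanosterol carried most of the lower synthesis calls at 25 mM. SC5D, a desaturase of the last steps (Entrez Gene 6309, chr11:121292771-121313410), was at 51.1 and 50.0 RPKM at 5 mM, 62.6 and 59.3 RPKM at 5 to 50 mM, 24.2 and 22.6 RPKM at 25 mM and 24.7 and 23.8 RPKM at 25 to 50 mM. All 4 libraries started at 5 mM were above all 4 started at 25 mM. Group means were 50.6 ± 0.758 RPKM at 5 mM and 23.4 ± 1.12 at 25 mM, a log2 difference of -1.08 (SE 0.0590, adjusted p = 1.34e-05), and after the rises it was -1.29 (SE 0.0590, adjusted p = 4.39e-06). Its value in the rise from 5 mM, 0.26 (adjusted p = 0.253), did not pass. TM7SF2, a reductase of the same stretch of the pathway, was at 5.76 and 7.5 RPKM at 5 mM, 4.94 and 4.52 at 5 to 50 mM, 2.83 and 3.72 at 25 mM and 1.97 and 1.91 at 25 to 50 mM. Its values were lower after both rises, -0.40 (SE 0.14, adjusted p = 0.40) and -0.53 (SE 0.13, adjusted p = 0.490), neither past the threshold, and it was lower at 25 mM before and after the rises, -0.83 (SE 0.14, adjusted p = 0.00275) and -0.96 (adjusted p = 0.00132). CYP51A1, which demethylates lanosterol, was at 61.2 and 60.7 RPKM at 5 mM, 68.7 and 68.5 at 5 to 50 mM, 50.6 and 51.3 at 25 mM and 53.0 and 52.5 at 25 to 50 mM. It was lower at 25 mM, -0.25 (adjusted p = 0.00306), and after the rises, -0.37 (adjusted p = 0.000466). MSMO1, a methyl sterol oxygenase, was at 86.0 and 86.9 RPKM at 5 mM, 101 and 112 at 5 to 50 mM, 73.2 and 72.1 at 25 mM and 68.5 and 71.1 at 25 to 50 mM. The values after the rise from 5 mM were the highest, 0.29 (adjusted p = 0.253), and the differences between starts were -0.25 (adjusted p = 0.0112) and -0.60 (adjusted p = 0.000164); the first was lost without either 25 mM library.

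NSDHL, which removes the methyl groups as a dehydrogenase, was at 77.5 and 72.2 RPKM at 5 mM, 81.8 and 87.9 at 5 to 50 mM, 74.1 and 70.3 at 25 mM and 72.8 and 70.2 at 25 to 50 mM. DHCR7, the reductase that makes cholesterol in the last step of one branch, was at 53.0 and 58.3 RPKM at 5 mM, 67.9 and 68.0 at 5 to 50 mM, 56.0 and 55.6 at 25 mM and 58.2 and 58.6 at 25 to 50 mM. Both were lower at 25 to 50 mM than at 5 to 50 mM, -0.24 (adjusted p = 0.0143) and -0.21 (adjusted p = 0.0172), and near 0 at the start, -0.05 (adjusted p = 0.544) and 0.00397 (adjusted p = 0.964). EBP, a sterol isomerase, was at 138 and 142 RPKM at 5 mM, 137 and 144 at 5 to 50 mM, 121 and 128 at 25 mM and 126 and 130.2 at 25 to 50 mM. It was lower at the 25 mM start, -0.17 (adjusted p = 0.0304), and not past the threshold after the rises, -0.13 (adjusted p = 0.0782). HSD17B7, a sterol ketone reductase, had values of 14.9 to 17.2 RPKM and passed in no comparison. Leaving out single libraries ended the calls of NSDHL (replicate 3 at 25 to 50 mM or replicate 2 at 5 to 50 mM), of DHCR7 (any of the 4 raised libraries), of SQLE after the rises (replicate 2 at 5 to 50 mM) and of EBP (either 25 mM library or replicate 3 at 5 mM).

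Among the SREBP control genes, SCAP was higher and INSIG2 lower in cultures kept at 25 mM. SCAP was at 19.7 and 22.5 RPKM at 5 mM, 20.2 and 20.5 at 5 to 50 mM, 27.4 and 26.5 at 25 mM and 26.2 and 24.7 at 25 to 50 mM. All 4 libraries started at 25 mM were above all 4 started at 5 mM, which no other of the 28 genes did (21.9% of all genes), and the differences were 0.34 (SE 0.0750, adjusted p = 0.00912) and 0.31 (SE 0.0750, adjusted p = 0.0133). The call was lost at the start without replicate 1 at 25 mM, and after the rises without either 5 to 50 mM library or replicate 2 at 25 to 50 mM. INSIG2, which retains SCAP, was at 20.6 and 19.9 RPKM at 5 mM, 21.8 and 20.8 at 5 to 50 mM, 13.7 and 14 at 25 mM and 13.7 and 14.6 at 25 to 50 mM. The differences were -0.51 (SE 0.0653, adjusted p = 0.000690) and -0.56 (adjusted p = 0.000444). INSIG1, the more sterol-responsive of the pair, was at 75.5 and 88.2 RPKM at 5 mM, 78.0 and 72.8 at 5 to 50 mM, 94.1 and 99.8 at 25 mM and 89.0 and 79.5 at 25 to 50 mM. INSIG1 had higher values at 25 mM, 0.24 (adjusted p = 0.0608) at the start and 0.16 (adjusted p = 0.190) after the rises. It had lower ones after the rise from 25 mM, -0.20 (adjusted p = 0.502). None of these passed the threshold in the main fits, but median centring and quantile normalization each called it higher at the start. SREBF2 (Entrez Gene 6721, chr22:41833105-41907305) was at 59.3 and 59.7 RPKM at 5 mM, 58.3 and 58.1 at 5 to 50 mM, 54.8 and 54.0 at 25 mM and 49.2 and 49.2 at 25 to 50 mM. Its lowest libraries were those at 25 to 50 mM: the change in that rise was -0.14 (adjusted p = 0.502), in the rise from 5 mM -0.03 (adjusted p = 0.903). Against 5 to 50 mM it was lower, -0.24 (adjusted p = 0.00400), and at the start the difference was -0.13 (adjusted p = 0.0536). INSIG1 and SREBF2, whose windows hold the core letters printed above, had fitted differences of opposite sign between starts. Those of INSIG1 were not past the threshold in the main fits, and neither was that of SREBF2 at the start.

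The lysosomal carriers NPC2 and NPC1 had the largest differences between starts of the 28 genes on the log2(RPKM + 1) scale; by ratio of means between 5 mM and 25 mM, ABCA1 at 4.64 was above NPC2, and MYLIP at 3.55 was above NPC1 at 2.86. NPC2, the soluble lysosomal cholesterol binder (Entrez Gene 10577, chr14:74479935-74493512), was at 433 and 470.4 RPKM at 5 mM, 434 and 419.8 RPKM at 5 to 50 mM, 107 and 118 RPKM at 25 mM and 108 and 118 RPKM at 25 to 50 mM. The 5 mM groups did not overlap the 25 mM groups: means were 452 ± 26.7 RPKM against 113 ± 7.58, 4.0 times higher, and 427 ± 9.75 against 113 ± 7.08 after the rises, 3.79 times higher. The log2 differences were -1.99 (SE 0.0690, adjusted p = 1.65e-06) and -1.91 (SE 0.0690, adjusted p = 1.83e-06), at percentile 1.02 and 1.41 of all genes tested. NPC1, its membrane partner (Entrez Gene 4864, chr18:23506184-23586506), was at 44.8 and 42.8 RPKM at 5 mM, 46.7 and 46.8 at 5 to 50 mM, 14.9 and 15.7 at 25 mM and 15.2 and 16.2 at 25 to 50 mM. Means were 43.8 ± 1.42 against 15.3 ± 0.575 RPKM, with log2 differences of -1.46 (SE 0.0613, adjusted p = 4.21e-06) and -1.51 (SE 0.0613, adjusted p = 3.00e-06). Neither gene passed in a rise, where the fitted values were 0.09 (adjusted p = 0.683) and 0.04 (adjusted p = 0.884) for NPC1 and, for NPC2, -0.08 (adjusted p = 0.728) and -0.000218 (adjusted p = 0.999). STARD4, a cytosolic carrier between membranes, was at 46.7 and 43.7 RPKM at 5 mM, 58.4 and 58.0 at 5 to 50 mM, 33.9 and 35.2 at 25 mM and 37.3 and 37.2 at 25 to 50 mM. It had the smallest p of the 28 in the rise from 5 mM, 0.36 (SE 0.0639, adjusted p = 0.161), and passed when all 8 libraries shared 1 estimate of the spread. Between starts it was lower at 25 mM before and after the rises, -0.38 (SE 0.0538, adjusted p = 0.00121) and -0.63 (SE 0.0538, adjusted p = 9.12e-05).

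CD68, a lysosomal glycoprotein used as a macrophage marker, was lower at 25 mM with NPC1 and NPC2, 246 against 91.5 RPKM, -1.42 (adjusted p = 1.43e-06); it was singled out after its values were seen. Of the 8 endothelial and immune markers 3 reached 1 RPKM, and CDH5 and CD3E were at 0 in every library. The other 2 that reached it were TEK, an endothelial receptor, 0.29 (adjusted p = 0.104), and CD14, a monocyte marker, -0.47 (adjusted p = 0.0515). Under 1 RPKM the markers went both ways. PTPRC, which marks white blood cells, was at 0.105 RPKM at 5 mM and 0.165 at 25 mM. PECAM1, an endothelial marker averaging 0.401 RPKM over the 4 groups, was 44.0 times higher at 5 mM than at 25 mM. After the rises its ratio was 45.4. Both PECAM1 ratios divide by a very low value, so their size is uncertain. VWF, averaging 0.0739 RPKM, was 1.42 times higher at 5 mM than at 25 mM. The summed level of the 8, nearly all of it CD68, was 247 to 257 RPKM at 5 mM, 221 to 232 at 5 to 50 mM, 96.7 to 96.9 at 25 mM and 90.8 to 91.7 at 25 to 50 mM. The part of other cell types in the carrier values was not tested.

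**Figure D4:**
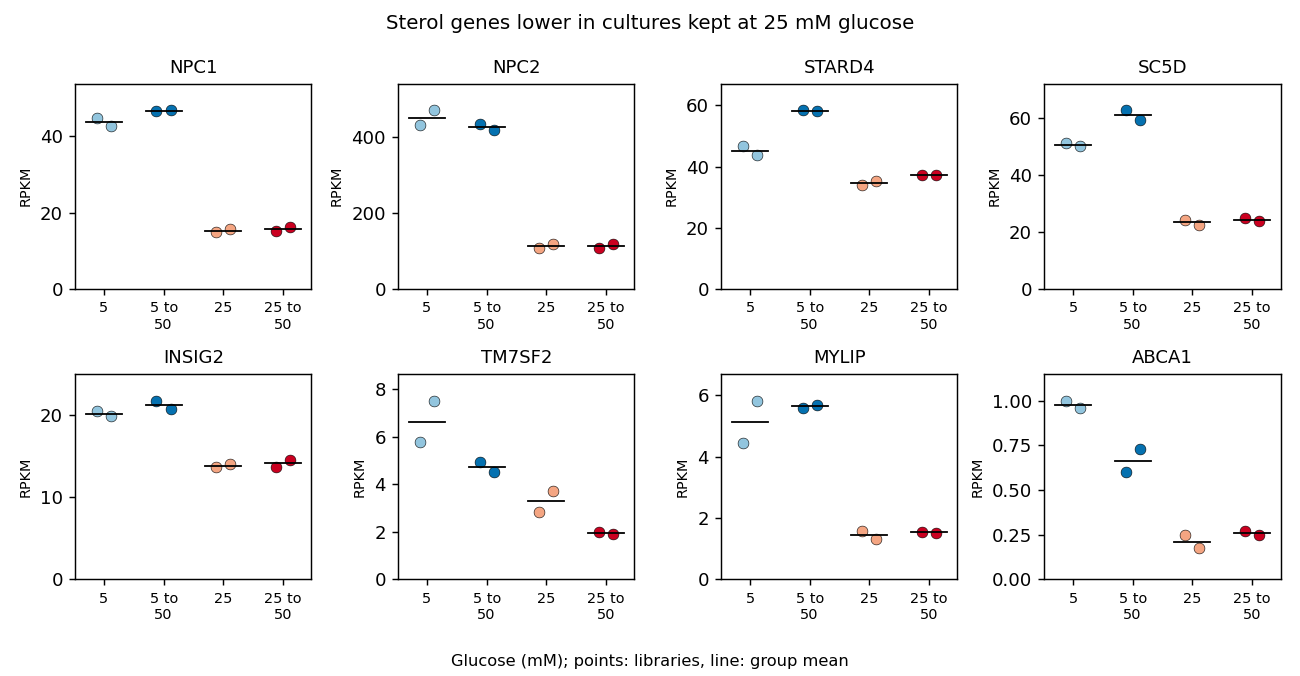
RPKM of 8 sterol genes with lower values in cultures kept at 25 mM (axes from 0, points for libraries, horizontal lines for the means of 2). The 25 mM and 25 to 50 mM libraries lie under the 5 mM and 5 to 50 mM libraries in every panel. By group means, the gap between starts exceeds the change within either start for NPC1, NPC2, SC5D, INSIG2, TM7SF2, MYLIP and ABCA1.

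Of the LXR and efflux genes, MYLIP was at 4.44 and 5.82 RPKM at 5 mM, 5.60 and 5.69 at 5 to 50 mM, 1.57 and 1.32 at 25 mM and 1.55 and 1.53 at 25 to 50 mM. It was lower at 25 mM, -1.32 (SE 0.12, adjusted p = 0.000145), and after the rises, -1.39 (SE 0.12, adjusted p = 0.000104), and did not pass in either rise, 0.13 (adjusted p = 0.818) and 0.06 (adjusted p = 0.887). ABCA1, the cholesterol efflux pump whose window is printed above, was at 0.999 and 0.958 RPKM at 5 mM, 0.600 and 0.729 at 5 to 50 mM, 0.249 and 0.174 at 25 mM and 0.270 and 0.248 at 25 to 50 mM, from 324 reads at 5 mM, 210 at 5 to 50 mM, 77 at 25 mM and 87 at 25 to 50 mM over both libraries. The 4 libraries started at 5 mM were above the 4 started at 25 mM. Tested without the filter on low values, it was lower at 25 mM, -0.71 (SE 0.0523, adjusted p = 0.000305), and after the rises, -0.40 (adjusted p = 0.00231). In the rises its fitted values were -0.25 (adjusted p = 0.385) and 0.06 (adjusted p = 0.731); at this level log2(RPKM + 1) understates the ratio of means, which was 4.64 between 5 mM and 25 mM. The receptors themselves did not pass in any comparison of the main fits. NR1H2, which encodes LXRβ, had values of 42.9 to 72.0 RPKM and NR1H3 3.56 to 4.93 RPKM. At the start, NR1H2 differed by -0.26 (adjusted p = 0.218) and NR1H3 by 0.20 (adjusted p = 0.179). Quantile normalization called NR1H3 at the start, and the fit of only the 4 libraries compared called NR1H2 after the rises. Over the whole set, all 4 libraries started at 5 mM were above all 4 started at 25 mM in 12 of 28 genes, against 26.5% of all genes; the reverse held in 1, SCAP, and 15 overlapped.

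A further list of 36 genes of sterol handling, 30 of them tested between starts, was compared in the same fits. In the rises 0 of 30 and 0 of 29 passed with limma; before adjustment, 2 were higher and 1 lower at p under 0.05 from 5 mM (all genes: 5.16% and 5.36%), and 0 and 5 from 25 mM (2.8% and 6.45%). At 25 mM against 5 mM 3 were higher and 11 lower, with a median of -0.08, beside 17% and 22.1% of all genes called. After the rises 3 were higher and 13 lower, with a median of -0.15, beside 18.1% and 23.3%. CYP27A1, the mitochondrial sterol hydroxylase that makes an oxysterol, was lower at 25 mM, 10.7 ± 0.0271 against 3.92 ± 0.459 RPKM, -1.25 (adjusted p = 3.59e-05). LIPA, the lysosomal lipase that frees cholesterol from its esters upstream of NPC2, was lower at 25 mM, 89.9 ± 3.75 against 61.2 ± 0.474 RPKM, -0.55 (adjusted p = 0.000503). SOAT1, which esterifies cholesterol for storage, was lower at 25 mM, 112 ± 11.8 against 81.7 ± 1.45 RPKM, -0.45 (adjusted p = 0.00209), as was the endocytic receptor LRP1, 54.3 ± 0.891 against 30.8 ± 7.15 RPKM, -0.82 (adjusted p = 0.00253). VLDLR, a lipoprotein receptor, was lower, -0.50 (adjusted p = 0.00810), and did not pass under quantile normalization, -0.28 (adjusted p = 0.108). TMEM97, a binding partner of NPC1, was lower, -0.50 (adjusted p = 0.000652), and the sterol transfer gene GRAMD1B was too, -0.88 (adjusted p = 0.000506). CH25H, another oxysterol enzyme, had 13 and 23 reads in the 5 mM libraries and 1 and 0 in the 25 mM libraries, -0.88 (adjusted p = 0.00411). That value ran from -4.53 to -0.41 over the alternatives and did not pass under quantile normalization (adjusted p = 0.0722); in the rise from 5 mM its fitted value was 0.80 (adjusted p = 0.254). LPCAT3, an LXR target that remodels phospholipids, was lower, -0.27 (adjusted p = 0.0176). LBR, a nuclear envelope protein with sterol reductase activity like that of TM7SF2, was higher at 25 mM, 79.1 against 105 RPKM, 0.41 (adjusted p = 0.00305). OSBP, an oxysterol binding carrier, was higher by 0.36 (adjusted p = 0.00539). After the rises NCOR1, a corepressor that LXR recruits, was higher by 0.29 (adjusted p = 0.0222) and GRAMD1A was lower, -0.39 (adjusted p = 0.0109). Left-out libraries ended the calls of LPCAT3 (either 25 mM library or replicate 1 at 5 mM), of VLDLR (replicate 1 at 25 mM), of NCOR1 (any of the 4 raised libraries) and of GRAMD1A (either 5 to 50 mM library or replicate 3 at 25 to 50 mM). In the rise from 25 mM the smallest p values were those of GRAMD1C, -0.47 (adjusted p = 0.490), and STARD5, -0.35 (adjusted p = 0.493).

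Of 15 genes of fatty acid synthesis that SREBP also controls, 14 were tested and 1 passed in the rise from 5 mM: ME1, malic enzyme, which supplies NADPH, rose from 31.2 ± 0.643 to 49.1 ± 1.33 RPKM, 0.64 (SE 0.0634, adjusted p = 0.0411). The call kept its direction under 12 alternatives and its threshold under 7; it was lost without either 5 to 50 mM library. SCD, a desaturase, had the next smallest p, 0.30 (adjusted p = 0.196). With limma 0 passed in the rise from 25 mM (unadjusted: 0 higher, 1 lower). At the start, 3 were higher at 25 mM, namely ME1, 0.37 (adjusted p = 0.00229), the elongase ELOVL6, 0.27 (adjusted p = 0.0162), and the desaturase SCD5, 0.37 (adjusted p = 0.0341). The 3 lower ones were ACSS2, which makes acetyl-CoA from acetate, -0.49 (adjusted p = 0.000676), and the desaturases FADS1, -0.24 (adjusted p = 0.00515), and FADS2, -0.23 (adjusted p = 0.00369). After the rises 2 were higher and 6 lower, with a median of -0.19. ME1 was there among the lower ones, opposite to its sign at the start, with -0.40 to -0.31 over the 16 alternatives. The difference between the 2 rises, fitted on all 8 libraries, passed for 0 of the 14 genes (0.0251% of all genes). Of all genes 39.1% were called at the start and 41.4% after the rises. Between starts, ELOVL6 lost its call without either 25 mM library or replicate 3 at 5 mM, and SCD5 without any 1 of 5 libraries, namely the 25 mM and 25 to 50 mM ones and replicate 1 at 5 mM.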

How the data were processed

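The authors deposited 2 tables of RPKM, reads per kilobase scaled to library depth, 1 for each starting glucose; STAR and hg38 are named in the submitters' processing notes, and the counting annotation is not given in the sources used here. The tables were joined on the Entrez Gene number. Read counts and gene lengths were recovered from the steps between values. Genes that reached 1 RPKM in 2 or more fitted libraries were compared as log2(RPKM + 1) with limma 3.58.1 (trend, two-sided) in R 4.3.3, p-values being adjusted by Benjamini-Hochberg over every gene in the fit (threshold 0.05). Each rise was fitted on its own 4 libraries, other comparisons on all 8. A fold change on this scale understates the change of low genes. Alternatives were a pseudocount of 0.1, no filter, median centring, quantile normalization, no trend, other sample sets, a replicate block, each library left out, and voom on the recovered reads.

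Library values are given for HMGCS1, SQLE, CYP51A1, INSIG1, SREBF2, STARD4, ABCA1, ABCG1 and MYLIP, for each of the 30 genes past the threshold in a comparison, and for the 4 with the smallest p in each rise and between starts. Of the other sterol and fatty acid lists, counts are complete and part of the called genes are named. The 30 genes and the lists were chosen with earlier results of these data known.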

Additional observations from a re-analysis of the deposited data

How the results depend on the processing

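Across 1584 recomputed single-gene values of 104 results, 1432 kept their direction and side of the threshold, 129 lost a call, 12 gained one and 11 changed sign; the cause was not tested. Of the 28 genes, 9 of 14 calls at 25 against 5 mM were kept under all 16 alternatives (lost at least once: EBP, FDFT1, MSMO1, MVK and SCAP), and 12 of 16 after the rises (lost: DHCR7, NSDHL, SCAP and SQLE). With all 8 libraries in the fit the rise from 5 mM had 1 call, STARD4, where 1.09% of all genes were called. Leaving out single libraries changed the calls among the 28 in both rises, between starts and after the rises. The share of all genes called changed with them. Medians with 1 library left out ran from -0.0999 to -0.0451 between starts, -0.250 to -0.219 after the rises and -0.197 to -0.133 for the difference of rises. The median of the rise from 25 mM was 0.00880 under median centring and -0.0106 under quantile normalization. After the rises it was -0.181 under median centring and -0.216 under quantile normalization. For the difference of rises it was -0.204 with a pseudocount of 0.1, -0.124 under median centring, -0.116 under quantile normalization and -0.206 with voom. Signs changed in the rise from 25 mM for SQLE, which was 0.0313 under median centring and 0.00418 under quantile normalization, and from -0.0524 to 0.0171 with 1 library left out (above 0 without replicate 3 at 25 mM or replicate 2 at 25 to 50 mM). With 1 library left out, SQLE between starts ran from -0.0128 to 0.0567 (under 0 without replicate 3 at either glucose), MYLIP from -0.0359 to 0.289 in the rise from 5 mM and from -0.0175 to 0.129 in the rise from 25 mM, and in the difference of rises MYLIP ran from -0.233 to 0.0919 and INSIG1 from -0.198 to 0.0232.

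Over all genes, the rise from 5 mM had 39 calls, 0 without the filter, without trend or with the block, 49 with voom, 60 and 61 under the scalings, 130 with all 8 libraries, and 0 to 805 with 1 library left out. From 25 mM there was 1 call, and 0 to 777 with 1 library left out; median centring and the 8-library fit gave 4 and voom 7. The difference of rises had 3 calls and 0 with a pseudocount of 0.1. With replicate number as a block over all 8 libraries, calls among the 28 were 0 in both rises and in their difference, as over all genes. Between starts they were 11 (28.9% of all genes), and 14 without it (39.1%). After the rises they were 13 (28.6% of all genes), and 16 without it (41.4%). The medians were 0.122 and -0.0396 in the rises from 5 and 25 mM, -0.172 for their difference, -0.0520 between starts and -0.238 after the rises. The labels tie no number to a shared culture, the groups of each rise share 1 number only, and deviations of same-numbered 5 and 25 mM libraries had a correlation of 0.286 over 9005 genes. With 2 libraries a group, standard errors among the 28 genes reached 0.169 in the rise from 5 mM and 0.132 in the rise from 25 mM on the log2 scale.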
